A study of Homo sapiens with 16 samples.

Results

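Well-known long noncoding RNAs were followed after knockdown of HCF-1 in HepG2, a human cell line grown from a liver tumour. The 8 RNAs were MALAT1, NEAT1, KCNQ1OT1, H19, NORAD, TUG1, DANCR and HULC, taken by name from the deposited table. By name 7 were found, and NORAD stood there under its older symbol LINC00657 (ENSG00000260032), so 8 of 56969 genes are described. All 8 passed the filter on low values, a mean of 10 normalized counts. The 8 control siRNA libraries came from HepG2 cells transfected with a control siRNA, and the 8 HCF-1 siRNA libraries from HepG2 cells transfected with siRNA against HCF-1. Both groups received 2 rounds of transfection, with RNA taken 2 days after the second. The labels call the libraries biological replicates without saying what separates them, so p-values measure the spread between these libraries. HepG2 is 1 tumour-derived line, and siRNA lowers its target without removing it. HCF-1, encoded by HCFC1, is a chromatin-bound cofactor that sequence-specific factors recruit to promoters.

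Long noncoding RNAs are transcribed like messenger RNAs but are not translated into known proteins, and many act through where they stay in the cell. MALAT1 accumulates in nuclear speckles, bodies rich in splicing factors, and NEAT1 is the RNA scaffold of paraspeckles. KCNQ1OT1 is an unspliced antisense RNA that stays on chromatin and silences neighbouring imprinted genes. These 3 are called nuclear-retained below. NORAD is mostly cytoplasmic and binds Pumilio proteins, H19 is an imprinted fetal RNA and microRNA precursor, DANCR hosts a small nucleolar RNA, and HULC was named for its high level in liver cancer. TUG1 occurs in nucleus and cytoplasm and was counted among the 5 others.

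The 3′ ends of MALAT1 and of the long NEAT1 form are shown because they differ from those of ordinary messenger RNAs. Instead of an added poly(A) tail, these RNAs end in an A-rich tract encoded in the genome, which pairs with 2 U-rich motifs in a triple helix. The libraries were made with a messenger RNA kit, and how well it captured such ends was not measured here. The stretches below come from GENCODE 29 transcripts MALAT1-202 (8708 bases, positions 8265 to 8355) and NEAT1-202 (22743 bases, positions 22653 to 22743), written with T for U. Capitals mark the U-rich motifs and the A-rich tract.
MALAT1: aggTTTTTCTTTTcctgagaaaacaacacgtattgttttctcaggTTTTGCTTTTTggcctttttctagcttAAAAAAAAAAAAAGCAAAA
NEAT1: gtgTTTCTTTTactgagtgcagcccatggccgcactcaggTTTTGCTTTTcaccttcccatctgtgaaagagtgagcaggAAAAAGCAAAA
The search took U-rich motifs only where they lay before an A-rich tract, so the order of elements was set by the search. The NEAT1 stretch reached the last base of its transcript, and the annotated MALAT1 transcript ran 353 bases further. The short NEAT1 form is polyadenylated in the usual way. The deposited counts are per gene, so the short and long forms of NEAT1 cannot be told apart.

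NORAD is known for repeated binding sites of Pumilio proteins, which repress messenger RNAs. The motif TGTANATA occurred 15 times in the 5339-base NORAD-201 transcript, or 2.81 times per kb. Among 2336 GENCODE long noncoding transcripts of 3000 bases or longer, 34.0% held at least 1 copy and 3 transcripts, NORAD included, were as dense or denser. The longest transcripts of NEAT1, KCNQ1OT1 and TUG1 held 6, 9 and 2 copies, and those of MALAT1, H19 and DANCR held 0. The sites below are 5 of the 15, with the motif in capitals, shown for the variation around it.
NORAD site 1: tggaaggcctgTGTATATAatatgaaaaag
NORAD site 3: aaatcacatttTGTAAATAcctttttgtta
NORAD site 5: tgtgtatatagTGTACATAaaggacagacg
NORAD site 8: gaataacacttTGTAAATAgcttttaaaaa
NORAD site 14: caatgctactgTGTATATAatggaaaactt
The search fixed 7 of the 8 capital letters, so only the N position could differ, and it takes different bases among these sites.

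Promoter windows of 250 bases before and 50 after the start, from RefSeq (GRCh38.p14), were at hand for 5 members: MALAT1, H19, NORAD, TUG1 and DANCR. NEAT1, KCNQ1OT1 and HULC had none in the table. Motifs of factors that recruit HCF-1 were searched on both strands as an ETS core (CCGGAAG), a YY1 core (AAGATGGC), an E2F core (TTTNGCGC), the THAP11 and ZNF143 core and a CREB core (TGACGTCA). The CCAAT box (CCAAT) was added as a common promoter element. These occurred in 10.3%, 2.89%, 1.79%, 1.75%, 1.85% and 34.6% of 35116 windows, in that order. The windows of MALAT1, NORAD and DANCR are printed because MALAT1 and NORAD rose and DANCR fell after HCF-1 siRNA, with matches in capitals.
MALAT1 chr11:65497488-65497787, plus strand: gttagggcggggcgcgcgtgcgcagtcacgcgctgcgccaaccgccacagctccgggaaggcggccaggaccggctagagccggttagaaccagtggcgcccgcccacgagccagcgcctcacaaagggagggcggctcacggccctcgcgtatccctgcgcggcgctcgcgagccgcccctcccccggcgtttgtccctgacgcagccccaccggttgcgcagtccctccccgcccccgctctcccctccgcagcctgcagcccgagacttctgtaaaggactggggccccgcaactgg
NORAD chr20:36050911-36051210, minus strand: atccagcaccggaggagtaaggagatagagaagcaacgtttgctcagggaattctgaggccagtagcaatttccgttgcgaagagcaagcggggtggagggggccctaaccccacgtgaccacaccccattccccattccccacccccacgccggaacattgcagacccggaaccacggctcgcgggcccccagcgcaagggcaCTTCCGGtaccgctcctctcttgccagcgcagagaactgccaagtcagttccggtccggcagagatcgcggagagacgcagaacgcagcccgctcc
DANCR chr4:52712144-52712443, plus strand: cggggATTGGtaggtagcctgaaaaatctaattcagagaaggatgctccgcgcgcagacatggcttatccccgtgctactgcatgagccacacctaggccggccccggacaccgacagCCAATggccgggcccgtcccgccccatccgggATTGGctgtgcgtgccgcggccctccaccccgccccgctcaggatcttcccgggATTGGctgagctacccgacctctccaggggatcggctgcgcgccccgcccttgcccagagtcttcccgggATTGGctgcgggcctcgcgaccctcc
The MALAT1 window, and that of a second MALAT1 start, held 0 matches to any of the 6 motifs. The NORAD window held 1 ETS core, and the DANCR window held 5 CCAAT boxes and none of the others. The TUG1 window held 2 CCAAT boxes, and that of H19 held 0 matches. A match describes letters in a window and shows no binding.

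HCFC1, the siRNA target, spanned 4851 to 6878 normalized counts in control libraries (median 5548). After HCF-1 siRNA it spanned 3112 to 4171 (median 3654). The groups did not overlap (log2 fold change -0.61 ± 0.07 SE, limma adjusted p = 4.52e-06). Recovered reads totalled 21030830 to 32820459 per control library and 25098840 to 43186890 per HCF-1 siRNA library. All 8 liver markers checked had means of 10 or more. Of these 6 rose (ALB, AFP, APOB, TTR, SERPINA1 and HNF4A), beside 18.2% higher and 18.3% lower over all genes tested. FGB fell (-0.50 ± 0.05, limma adjusted p = 2.24e-06) and APOA1 was not called (0.13 ± 0.06, limma adjusted p = 0.121). The groups did not overlap for ALB, AFP, TTR and FGB, as was found for 9.82% of genes tested. The summed level of the 8 liver markers was 619381 to 679683 normalized counts in control and 737244 to 894086 in HCF-1 siRNA libraries. The blood cell markers CD3E and HBB were listed at 0 and PTPRC at no more than 3.60, while CD14 was at 58.5 to 121 in control and 40.2 to 101 in HCF-1 siRNA libraries (limma adjusted p = 0.0787). Summed fibroblast markers (3 of 5 with a mean of 10 or more) were 916.5 to 1476 in control and 866 to 1485 after HCF-1 siRNA. Within that list COL1A1 fell (-0.56 ± 0.15, limma adjusted p = 0.00718), while PDGFRB (0.36 ± 0.16, limma adjusted p = 0.0859) and COL3A1 (-1.22 ± 0.78, limma adjusted p = 0.239) were not called. The summed level of 2 endothelial markers was 82.0 to 159.9 and 94.6 to 157.6, with neither called. The part of depth or of the liver program in the results below was not tested, apart from a fit on reads thinned to the smallest library.

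All 3 nuclear-retained RNAs rose after HCF-1 siRNA. MALAT1 reached 2.12 times its control mean, NEAT1 2.13 times and KCNQ1OT1 1.98 times. Of the 5 other RNAs, NORAD rose to 1.19 times and DANCR fell to 0.881 times its control mean, while TUG1, H19 and HULC did not pass. Among all 16081 genes tested, 36.6% were called, 18.2% higher and 18.3% lower, against 4 of 8 members higher and 1 lower. In RNA from whole cultures, more expressing cells and more RNA per cell cannot be told apart. Fold changes below are on the log2(normalized count + 1) scale with the standard error, HCF-1 siRNA over control siRNA, 8 libraries each. Normalized counts written with ± are group means with the SD of 8 libraries.

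**Figure D1:**
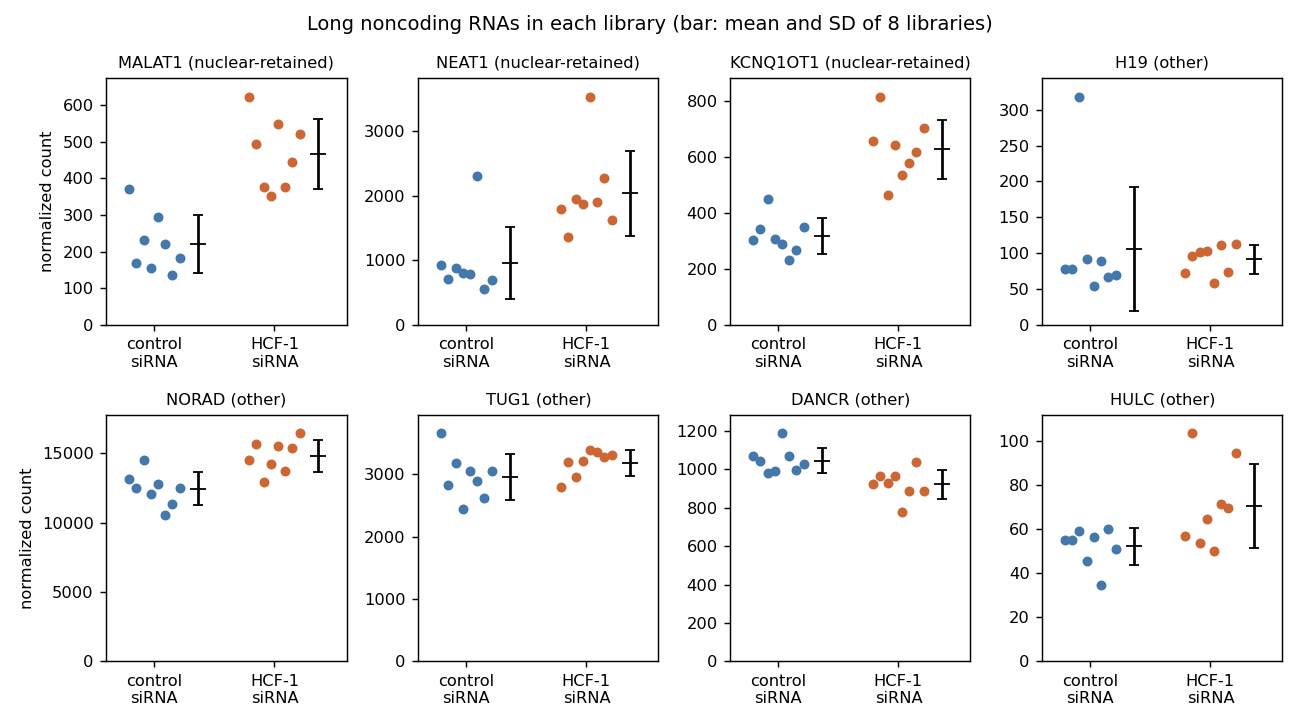
Normalized counts of each long noncoding RNA in the 8 control siRNA and 8 HCF-1 siRNA libraries, 1 panel per gene, with 1 point per library and bars for the mean and SD. KCNQ1OT1 shows no overlap (highest control 448, lowest HCF-1 siRNA 464), and 1 control library each stands high for NEAT1 (2304) and H19 (318).

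MALAT1, the speckle RNA, ran from 137 to 372 normalized counts in control libraries, with a median of 202. With HCF-1 siRNA it ran from 353 to 624, with a median of 469.6. Of the 8 HCF-1 siRNA libraries 7 lay above the highest control library, and the ranges overlapped only between replicate 4 of HCF-1 siRNA and replicate 1 of control. The log2 fold change was 1.13 ± 0.18 (limma adjusted p = 1.28e-04), larger than that of 98.1% of genes tested. Reads per library were 103 to 867.

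NEAT1, the paraspeckle scaffold, spanned 559 to 2304 normalized counts in control libraries, with a median of 789, and 1359 to 3533 after HCF-1 siRNA, with a median of 1883. Replicate 6 of the control stood apart at 2304, and only 1 HCF-1 siRNA library lay above it. The other 7 control libraries reached at most 923, below every HCF-1 siRNA library. Replicate 5 of HCF-1 siRNA stood apart as the highest of all. The log2 fold change was 1.17 ± 0.24 (limma adjusted p = 9.71e-04). It was 1.38 (adjusted p = 7.72e-06) without control replicate 6 and 1.05 (adjusted p = 0.00164) without HCF-1 siRNA replicate 5.

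KCNQ1OT1, the antisense RNA within KCNQ1, spanned 231 to 448 normalized counts in control libraries, with a median of 305, and 464 to 815 after HCF-1 siRNA, with a median of 631. It was the only member whose groups did not overlap, as was found for 9.82% of genes tested, and for 4.59% with the HCF-1 siRNA libraries higher. The log2 fold change was 0.99 ± 0.13 (limma adjusted p = 1.08e-05). Whether counting used strand was not given in the sources used here. Reads of KCNQ1 on the other strand, and of genes overlapping TUG1, therefore cannot be told apart from these 2 RNAs. KCNQ1 itself was listed at 0 to 4.88 normalized counts, and CDKN1C, an imprinted neighbour that KCNQ1OT1 is known to silence, at 0 to 3.25. Both were too low to test.

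**Figure D2:**
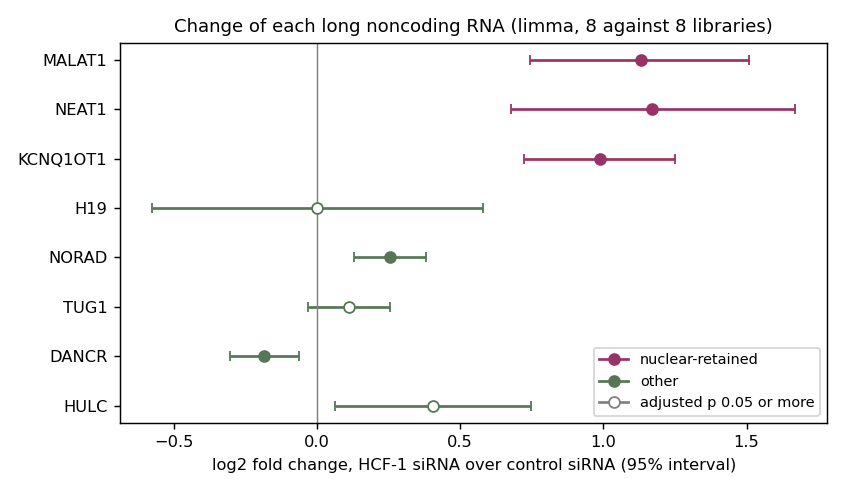
Log2 fold change of HCF-1 siRNA over control siRNA for each RNA (horizontal axis) with its 95% interval from limma, 8 against 8 libraries. Filled points passed an adjusted p of 0.05. The intervals of MALAT1, NEAT1 and KCNQ1OT1 start at 0.74, 0.68 and 0.72, above the ends of all others except HULC (0.75).

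NORAD, the Pumilio decoy, spanned 10544 to 14548 normalized counts in control libraries, with a median of 12494, and 12917 to 16434 after HCF-1 siRNA, with a median of 14967. The ranges overlapped, with 4 HCF-1 siRNA libraries above the highest control. The log2 fold change was 0.25 ± 0.06 (limma adjusted p = 0.00282). It was the most precisely counted member, with 8538 to 20747 reads per library.

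DANCR, an RNA known to hold back differentiation, spanned 979 to 1187 normalized counts in control libraries, with a median of 1035, and 779 to 1038 after HCF-1 siRNA, with a median of 928. Of the HCF-1 siRNA libraries 7 lay below the lowest control library, and replicate 7 reached into the control range. The log2 fold change was -0.18 ± 0.06 (limma adjusted p = 0.0177). It was the only member that fell, and its call was lost without a filter on low values (adjusted p = 0.0592).

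TUG1 spanned 2442 to 3658 normalized counts in control libraries, with a median of 2969, and 2793 to 3387 after HCF-1 siRNA, with a median of 3246. The HCF-1 siRNA libraries lay inside the control range, and the log2 fold change was 0.11 ± 0.07 (limma adjusted p = 0.217, 95% interval -0.03 to 0.25). Without control replicate 1, its highest library, the log2 fold change was 0.16 (adjusted p = 0.0488). MORC2, the neighbouring gene on the opposite strand, went from 1686 ± 46.8 to 1693 ± 169 normalized counts (adjusted p = 0.998).

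HULC spanned 34.6 to 59.9 normalized counts in control libraries, with a median of 55.0, and 49.97 to 103 after HCF-1 siRNA, with a median of 66.9. With 5 HCF-1 siRNA libraries above the highest control, its log2 fold change of 0.40 ± 0.16 missed the threshold (limma adjusted p = 0.0599, 95% interval 0.06 to 0.75). It passed without HCF-1 siRNA replicate 3 (0.45, adjusted p = 0.0428) or replicate 5 (0.47, adjusted p = 0.0335) and with DESeq2 on the recovered reads (0.43, adjusted p = 0.0487). With 34 to 100 reads per library it was the least deeply counted member.

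H19 spanned 54.4 to 318 normalized counts in control libraries, with a median of 78.2, and 58.7 to 113 after HCF-1 siRNA, with a median of 99.0. Replicate 3 of the control stood apart at 318, since the other 7 reached at most 91.1. The log2 fold change was 0.00 ± 0.27 (limma adjusted p = 0.999, 95% interval -0.58 to 0.58), and 0.26 (adjusted p = 0.210) without that library. Its sign changed with the setting, and was negative with edgeR (-0.22), with DESeq2 (-0.21), under every other scaling and with thinned reads. IGF2, the imprinted growth factor gene that shares enhancers with H19, rose from a median of 143122 (131342 to 163639) to 177678 (157195 to 215576). Its log2 fold change was 0.32 ± 0.06 (limma adjusted p = 3.23e-04).

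Set against each other, the nuclear-retained RNAs had a median log2 fold change of 1.13 and the others of 0.11, beside 0.0064 over all genes tested. The 1928 genes of long noncoding biotypes had a median of 0.12, with 366 higher and 150 lower, and of the 13162 protein-coding genes 2380 were higher and 2733 lower. Without control replicate 3, the library with high H19, the median of the others was 0.26. With TUG1 counted as nuclear-retained the medians were 1.06 and 0.13.

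The same values were also averaged by class within each library, which is not a second observation. Averaged over the 3 nuclear-retained RNAs, the log2 difference from the control mean spanned -0.49 to 0.35 in control libraries, against 0.86 to 1.39 after HCF-1 siRNA. Averaged over the 5 others, the spans were -0.16 to 0.46 and -0.105 to 0.309. The difference between the classes within a library spanned -0.38 to 0.51 in control libraries and 0.78 to 1.5 after HCF-1 siRNA. The groups did not overlap in this score, and how often other sets of genes do so was not computed. No test was made of this score, because the members were chosen with results known.

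**Figure D3:**
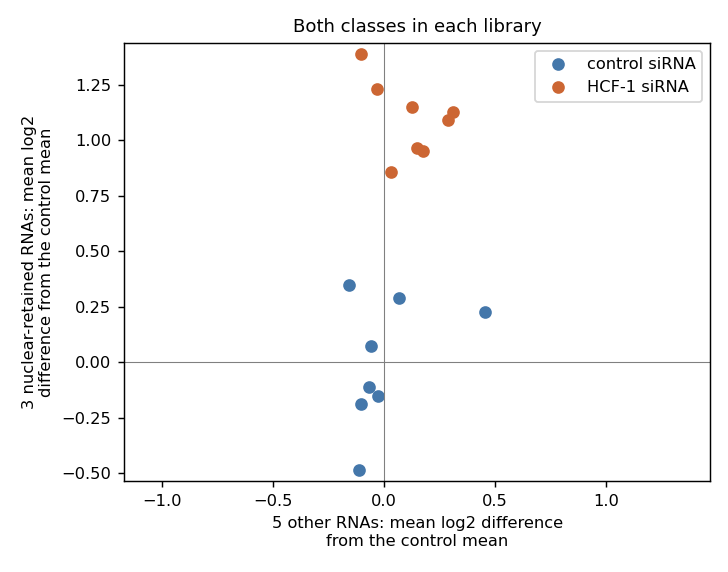
Mean log2 difference from the control mean in each library, for the 3 nuclear-retained RNAs (vertical axis) against the 5 others (horizontal axis), 1 point per library. The HCF-1 siRNA libraries lie at 0.86 or more on the vertical axis and the control libraries at 0.35 or less, while both groups share the horizontal range.

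Per kb of annotated exon, the control means were ordered NORAD (2328 normalized counts per kb), DANCR (458), TUG1 (292), NEAT1 (42.0), H19 (36.4), MALAT1 (25.0) and KCNQ1OT1 (3.46). Exon lengths were from GENCODE 29 by Ensembl identifier, and HULC had no entry there. The control ranges of NEAT1, H19 and MALAT1 overlapped, so their order is not firm, while those of NORAD, DANCR, TUG1 and KCNQ1OT1 stood clear of their neighbours. In HCF-1 siRNA libraries NEAT1 had 89.4, MALAT1 52.9 and H19 31.5 normalized counts per kb, and MALAT1 (40.0 to 70.6) then lay above H19 (20.3 to 39.0) in every library. The length used for NEAT1 covers its long form, while its short form is the polyadenylated one. MALAT1 and the long NEAT1 form lack an added poly(A) tail, and their capture by the messenger RNA kit was not measured. The order therefore describes counts in these libraries and not how abundant each RNA was in the cells.

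Within the groups the members did not move as 1 set. Over 28 pairs, the deviations of log2(normalized count + 1) from the group mean were correlated across 16 libraries, with permutation p-values adjusted over the 28 pairs. By Pearson's r 3 pairs passed, and by Spearman's rho 0 passed. KCNQ1OT1 and NORAD varied together, with r = 0.79 (permutation p = 8.90e-04, adjusted 0.0125) and rho = 0.66 (permutation p = 0.00881, adjusted 0.106). NEAT1 and HULC varied in opposite directions, with r = -0.74 (permutation p = 6.30e-04, adjusted 0.0125) and rho = -0.615 (permutation p = 0.0130, adjusted 0.106). KCNQ1OT1 and HULC varied together, with r = 0.69 (permutation p = 0.00444, adjusted 0.0414) and rho = 0.535 (permutation p = 0.0375, adjusted 0.164). Without the 2 libraries farthest from the median of the gene named first, r was 0.618, -0.505 and 0.626. Without control replicate 6 none of the pairs passed, and without HCF-1 siRNA replicate 2 or 3 only 1 pair did. MALAT1 and NEAT1, neighbours on chromosome 11, had r = 0.27 (permutation p = 0.396, adjusted 0.740).

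**Figure D4:**
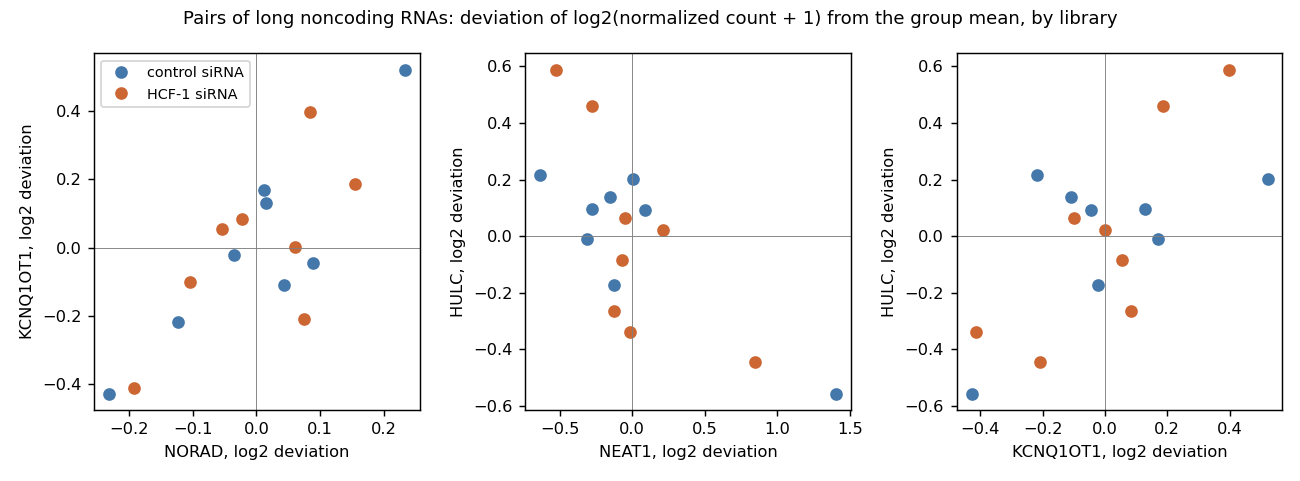
Deviation of log2(normalized count + 1) from the group mean for the 3 pairs with the strongest correlation, 1 point per library, coloured by siRNA group. KCNQ1OT1 rises with NORAD (r = 0.79) and with HULC (r = 0.69), and HULC falls as NEAT1 rises (r = -0.74), where control replicate 6 lies farthest out.

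Other genes varied most like these RNAs to very different degrees, by the same deviations over 16 libraries and 11463 genes with a mean of 100 or more. NORAD had 397 genes at r of 0.8 or more, among them MAN1A1 (r = 0.967) and EIF5B (0.964). KCNQ1OT1 had 114, among them APOB (0.945) and GTF3C4 (0.91). MALAT1 had 3, MYEF2 (0.90), ERMP1 (0.81) and CKS1B (0.81), and NEAT1 had 3, CHSY1 (0.85), C11orf80 (0.81) and AARSD1 (0.81). HULC had 11, led by RWDD4 (0.875), and TUG1 had 5, led by KIAA1009 (0.87). H19 had 1, C4orf27 (0.84), which was also highest in control replicate 3, and DANCR had 0, with TNFAIP8L1 nearest (0.79). At r of -0.8 or less, NORAD had 299 genes, KCNQ1OT1 37, HULC 7, MALAT1 5, and NEAT1, H19, TUG1 and DANCR 1 each. All these points share their libraries and depth, so the values describe likeness only.

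Genes of nuclear speckle proteins, the bodies where MALAT1 gathers, were mostly higher, in a list chosen with earlier results of these data known. Of 14 tested, 9 were higher and 0 lower, with a median log2 fold change of 0.28, beside the 0.0064 and the 18.2% higher over all genes. PNN, a speckle splicing protein, went from 4427 ± 539 to 7326 ± 642 normalized counts (0.73 ± 0.07, limma adjusted p = 6.62e-07). ACIN1, part of a splicing and apoptosis complex, went from 6131 ± 516 to 10025 ± 587 (0.71 ± 0.05, limma adjusted p = 2.70e-08), and PNISR changed by 0.54 ± 0.13. The speckle scaffold genes SRRM2 (0.38 ± 0.04) and SON (0.20 ± 0.04) also rose. Of the SRSF genes in the list, SRSF2 rose (0.18 ± 0.03, limma adjusted p = 3.45e-04), while SRSF1 (-0.02 ± 0.02) and SRSF3 (0.02 ± 0.03) did not pass.

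Genes of paraspeckle proteins, which assemble on NEAT1, were called about as often as all genes (36.6%, with 18.2% higher and 18.3% lower). Of 19 tested, 5 were higher (ZNF24, CPSF7, MATR3, HNRNPA1 and NONO) and 2 lower (SMARCA4 and NUDT21), with a median log2 fold change of 0.06. Among the core proteins NONO rose by 0.115 ± 0.03 (limma adjusted p = 0.0109), while SFPQ (-0.01 ± 0.03, adjusted p = 0.762) and PSPC1 (0.05 ± 0.04, adjusted p = 0.364) did not pass. The largest changes were ZNF24 (0.44 ± 0.10), CPSF7 (0.27 ± 0.06) and SMARCA4 (-0.22 ± 0.06).

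Genes for 3′ end processing and stability of MALAT1 and NEAT1 fell more often than they rose. Of 14 tested, 1 was higher and 6 were lower, against 18.3% lower over all genes. The list's median was -0.09. POP4 (-0.41 ± 0.06) and POP5 (-0.38 ± 0.06), subunits of RNase P, which cuts the MALAT1 precursor, fell. METTL16, which binds the MALAT1 triple helix, rose by 0.24 ± 0.08 (limma adjusted p = 0.0260), and lost its call without control replicate 4 (adjusted p = 0.0525).

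Genes of nuclear RNA decay were called in both directions, near the shares over all genes (18.2% higher and 18.3% lower). Of 20 tested, 5 were higher (ZFC3H1, ZCCHC8, EXOSC10, SKIV2L2 and PABPN1) and 4 lower (EXOSC5, C1D, EXOSC4 and EXOSC6), with a median of -0.08. ZFC3H1, which links polyadenylated nuclear RNAs to the exosome, went from 365 ± 127 to 818 ± 174 normalized counts (1.21 ± 0.20, limma adjusted p = 1.41e-04). ZCCHC8, part of another exosome adaptor, rose by 0.32 ± 0.06, and EXOSC5, an exosome core subunit, fell by 0.40 ± 0.08 on the log2 scale.

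**Figure D5:**
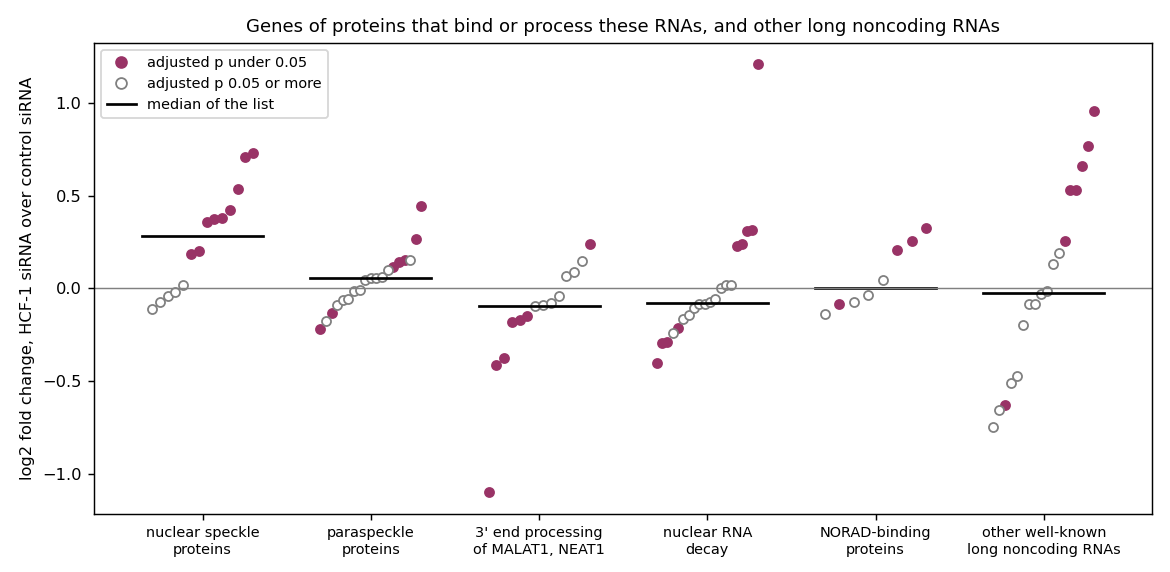
Log2 fold change of HCF-1 siRNA over control siRNA (vertical axis) for each tested gene of 6 lists, 1 point per gene, filled where the limma adjusted p was under 0.05, with a bar at the list's median. Speckle genes reach 0.73 with 0 called lower, and ZFC3H1 at 1.21 stands highest among nuclear RNA decay genes.

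Over all genes 36.6% were called, 18.2% higher and 18.3% lower. Of 8 genes tested of proteins that bind NORAD, 3 were higher, 1 was lower and 4 were not called. Among them PUM2, a Pumilio repressor, went from 4392 ± 547 to 5491 ± 603 normalized counts (0.32 ± 0.08, limma adjusted p = 0.00362). TOP1, a DNA topoisomerase, also rose (0.21 ± 0.04), and KHDRBS1, an RNA-binding protein gene, fell (-0.08 ± 0.02). Of 5 genes of proteins that bind H19 or HULC, beside 36.6% called over all genes, IGF2BP2 rose (0.195 ± 0.05), ELAVL1 fell (-0.18 ± 0.03) and the others did not pass, IGF2BP1 with 0.05 ± 0.05.

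Of 18 other well-known long noncoding RNAs tested, 6 were higher, 1 (HCP5) lower and 11 not called. Over all genes 36.6% were called, 18.2% higher and 18.3% lower. The median of these 18 was -0.02. PVT1, the RNA beside MYC, went from 158 ± 50.6 to 301 ± 71.5 normalized counts (0.96 ± 0.19, limma adjusted p = 8.62e-04). SNHG1, a small nucleolar RNA host gene, went from 823 ± 70.6 to 1418 ± 256 (0.77 ± 0.10, limma adjusted p = 9.10e-06). LINC-PINT went from 39.6 ± 13.6 to 64.6 ± 21.5 (0.66 ± 0.24, limma adjusted p = 0.0372), a call lost in 12 of the 16 fits that left out 1 library, with adjusted p up to 0.0740. In 7 of these a control library was left out (each but replicate 6), and in 5 an HCF-1 siRNA library (1, 2, 5, 7 and 8). It was also lost without a filter on low values (adjusted p = 0.0631).

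Genes beside the members were called in both directions, against 18.2% higher and 18.3% lower over all genes. Of 19 neighbours tested, 3 were higher (ERVMER34-1, SLC22A18 and IGF2) and 7 lower, with a median log2 fold change of -0.17. Beside MALAT1 and NEAT1, LTBP3 (-0.01 ± 0.08) did not pass and SSSCA1 fell (-0.48 ± 0.07). Near KCNQ1OT1, the imprinted genes SLC22A18 and PHLDA2 went opposite ways, with SLC22A18 higher (0.72 ± 0.18) and PHLDA2 lower (-0.36 ± 0.12). LSP1, near H19, fell (-0.59 ± 0.18). SCFD2, near DANCR, fell by 0.50 ± 0.12 on the log2 scale, and AAR2, near NORAD, fell by 0.30 ± 0.03.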

How the data were processed

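The deposited values are normalized counts (a signal: gene counts divided by a size factor, by the authors) for 16 libraries. The submitters' processing notes name build hg19 and the tools DESeq2 1.16.1, featureCounts 1.4.4, STAR 2.4.1d and cutadapt 1.4.2. Gene annotation, use of strand and filtering were not given in the sources used here. All values (100% within 0.001 read) were whole multiples of 1 step per library, which gave back whole reads. The limma 3.58.1 fit (trend and robust options, R 4.3.3) took log2(normalized count + 1) and kept genes whose mean reached 10, with Benjamini-Hochberg adjustment over all 16081 genes and calls under 0.05. The pseudocount understates changes of low genes.

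Alternatives were pseudocounts of 0.5 and 10, other filters and scalings, array weights, thinned reads, a replicate block, each library left out, and edgeR 4.0.16 and DESeq2 1.42.0 on the recovered reads. On the recovered reads edgeR called 5875 genes and DESeq2 6258. Libraries of a group differed by more than sampling noise in every pair.

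Members and lists were chosen with earlier results of these data known. Named genes were the members, HCFC1, their nearest genes by correlation, up to 3 called genes of largest change per list with a mean of 50 or more in either group, and IGF2, KCNQ1, CDKN1C, MORC2, SFPQ, NONO, PSPC1 and PUM2. Some genes that this rule names are not reported here. Genes that make up a count of 5 or fewer, and SRRM2, SON, SRSF1, SRSF2, SRSF3, IGF2BP1, LTBP3, PHLDA2, SSSCA1 and AAR2, were named after their values were seen. Sequences and exon lengths are from GRCh38 and carry no position of the hg19 files.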

Additional observations from a re-analysis of the deposited data

Results flagged for a closer look

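Dixon's ratio, the gap of an extreme library to its neighbour divided by the whole range, singled out 1 library in 4 of 16 groups of member values, and in 13 of 122 groups with the other named genes added. About 1 in 20 groups is picked by chance. NEAT1 had 2304 normalized counts in control replicate 6, against 559 to 923, and 3533 in HCF-1 siRNA replicate 5, against 1359 to 2277. H19 had 318 in control replicate 3, against 54.4 to 91.1, and DANCR had 1187 in control replicate 5, against 979 to 1071. In control replicate 6, LINC-PINT had 71.3 (others 26.7 to 39.1), CHSY1 1874 (913 to 1037), C11orf80 469 (248 to 347) and SCN9A 702 (812 to 905). In control replicate 3, C4orf27 had 307 (177 to 237), PIGQ 1117 (593 to 725) and ZYG11B 939 (653 to 751). CKS1B had 2959.8 in control replicate 1 (others 2303 to 2577), and ASH2L had 1698 in HCF-1 siRNA replicate 1 (2014 to 2261). CHSY1, C11orf80, C4orf27, PIGQ, ZYG11B, CKS1B, ASH2L and SCN9A were picked for their likeness to a member across these libraries, so a shared high or low library is built into that choice.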

How the results depend on the processing

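MALAT1, NEAT1, KCNQ1OT1 and NORAD kept their direction and their call in all 28 alternatives, with log2 fold changes of 1.04 to 1.24, 1.05 to 1.38, 0.93 to 1.06 and 0.22 to 0.29. With reads thinned to the smallest library they were 1.12, 1.18, 1.04 and 0.25. The number of members called was 4 to 6, and the median of the nuclear-retained RNAs was 1.04 to 1.19. With 1 library left out the median of the others ran from 0.0724 to 0.262, and the number of correlated pairs from 0 to 4, an alternative chosen after seeing the data. The first reached its highest value without control replicate 3, where H19 stood apart. Replicate numbers are shared between the groups, but same-numbered libraries did not vary together (r from -0.13 to 0.14, with 2 of 8 pairs over 0.1 and 1 number whose libraries correlated best with each other). With the replicate block 5484 genes were called, and DANCR (adjusted p = 0.0666) and LINC-PINT (adjusted p = 0.0721) were not. The depth limits HULC and H19 most, whose reads per library started at 34 and 49.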
